A study of Mus musculus with 6 samples.

Results

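The 50 genes described here encode nucleolar ribosome biogenesis factors: proteins of the small nucleolar ribonucleoproteins (snoRNPs), processing factors of the ribosomal RNA precursor and assembly factors of both ribosomal subunits. They were chosen by name, as the rows of the deposited count table whose gene symbol was on a fixed list. That list was written with earlier results of these data known, so the counts below describe it and are not an independent test. All 50 were found among the table's 45808 rows. All 50 also passed the filter on low counts that left 14209 genes for testing, so none is missing from the counts below. Values were read in activated mouse T cells with and without Drp1, the GTPase of mitochondrial division that Dnm1l encodes.

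RNA came from T cells of the spleen, taken from C57BL/6 mice 2 months old, that had been activated in culture with antibodies to CD3 and CD28 while IL-2 was present. The 3 libraries of the first group carried the wild-type genotype and the 3 of the second the genotype Drp1-/- (KO), with tissue, strain, age and activation shared by both. How the deletion was made, in which cells, and whether animals were pooled is not given in the sources used here. Nothing says that the replicates were separate animals or cultures, so each p-value reflects spread among these libraries alone, which may be technical.

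Ribosomes are built in the nucleolus, where RNA polymerase I makes a long precursor that is modified, cut and folded while ribosomal proteins join it. Box C/D snoRNPs methylate the precursor and box H/ACA snoRNPs turn uridines into pseudouridines. The SSU processome assembles the small (40S) subunit precursor, and a separate set of factors assembles the large (60S) subunit. T cells enlarge their nucleoli when they leave rest and begin to grow, and Myc, a transcription factor that binds the E-box sequence, is a known activator of many of these genes. Libraries made from polyadenylated RNA report the mRNAs of these factors, not ribosomal RNA or ribosome number.

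The E-box CACGTG was looked for in the promoters of the members, since most of them moved together. Of the 50, 43 were matched by symbol in the RefSeq promoter table (GRCm38.p6, the assembly also called mm10), which runs from 250 bases before to 50 bases after a transcript start. The motif reads the same on both strands, and 9 members held it. The sites are shown with 30 bases each, 5′ to 3′ on the strand of the gene, the motif in capitals, because their place relative to the start is the pattern reported for them.
Nop2 (chr6:125131811-125131840, + strand): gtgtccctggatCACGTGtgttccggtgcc
Utp18 (chr11:93885769-93885798, - strand): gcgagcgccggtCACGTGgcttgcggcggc
Pes1 (chr11:3963965-3963994, + strand): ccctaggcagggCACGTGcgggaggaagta
Wdr43 (chr17:71616220-71616249, + strand): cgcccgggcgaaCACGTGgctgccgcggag
Nle1 (chr11:82908355-82908384, - strand): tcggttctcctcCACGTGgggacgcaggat
Tsr1 (chr11:74898092-74898121, + strand): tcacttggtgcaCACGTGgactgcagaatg
Ltv1 (chr10:13193092-13193121, - strand): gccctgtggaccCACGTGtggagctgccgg
Utp20 (chr10:88826765-88826794, - strand): cccagcggcactaactaCACGTGaggaaaa
Mybbp1a (chr11:72441347-72441376, + strand): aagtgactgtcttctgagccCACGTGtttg

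In Nop2 and Utp18 the motif began 60 and 20 bases before the start. In the other 7 it lay after the start, with its first base between position 3 in Pes1 and position 41 in Mybbp1a. The motif stood in the 50 bases after the start in 7 of 43 members (16.3%), against 191 of 9675 tested genes with a promoter entry (1.97%). In the 250 bases before the start it stood in 2 of 43 members (4.65%), against 9.82% of the tested genes. Over the whole window the shares were 20.9% and 11.8%. The shares over the whole window and before the start were planned, while that in the 50 bases after the start was not. The start used by the table was the RefSeq gene start in 27 of the 43 members and another transcript start in the rest. Positions and shares hold for the start used only. From the gene start annotated by GENCODE, 71615895 for Wdr43 and 13193168 for Ltv1, the motif lay more than 50 bases after the start in both. By that start neither would count among the 7. The GENCODE start was closer to the motif in Mybbp1a and Utp20 and further from it in Tsr1 and Nop2. Shares by GENCODE starts were not computed. These shares are a description, and a match does not show that a factor binds there. The 9 members with the motif had a median log2 fold change (KO over wild type) of 0.54 and the 34 without it one of 0.65.

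Most of these factors were higher in the KO libraries. Levels are CPM, counts brought to a common library size by each library's total and an edgeR TMM factor, and a gene was called when its edgeR quasi-likelihood p, adjusted by Benjamini-Hochberg over all 14209 genes, was under 0.05. Of the 50 members 47 were called higher in KO, 1 was called lower and 2 were not called. Among all tested genes 52.9% were called, 26.7% higher and 26.1% lower. The median log2 fold change (KO over wild type) was 0.62 over the members and 0.01 over all tested genes. A rise of at least 1.5-fold was called for 29 members, against 8.36% of all tested genes.

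The same pattern was visible without a model. All 3 KO libraries lay above all 3 wild-type libraries for 48 members, against 32.5% of tested genes, and all 3 lay below for 1 member, against 30.8%. The 50 members took 0.702%, 0.747% and 0.736% of all counts in the wild-type libraries, in order of replicate number. Their shares in KO were 0.885%, 0.987% and 0.938%. Leaving out Npm1, the most abundant member, the shares were 0.426% to 0.490% in wild type and 0.667% to 0.758% in KO. Neither pair of ranges overlapped.

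**Figure D1:**
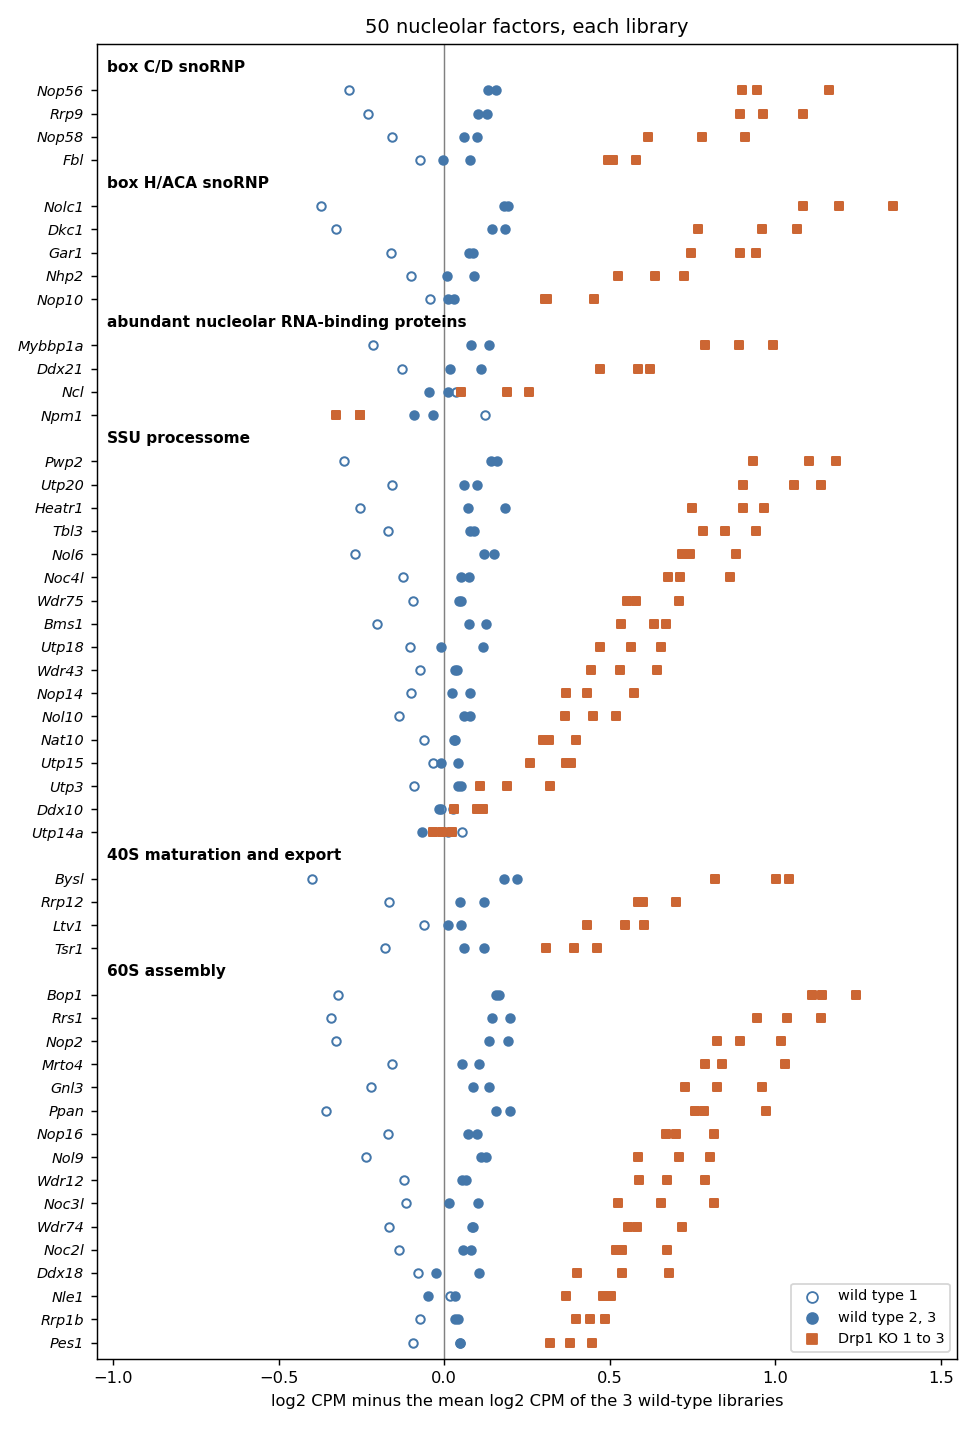
Level of each of the 50 members in each library as log2 CPM minus the gene's mean log2 CPM in wild type (x axis), by gene and role group (y axis); circles are wild type, with replicate 1 open, and squares are KO. Squares lie to the right of all circles for 48 genes, to the left for Npm1 and among them for Utp14a, the open circle is the lowest library for 45 genes, and KO replicate 2, not marked apart, is the highest for 46.

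The libraries had 24738017 to 34730475 counts each, so 3 counts, the floor used here, were 0.0864 to 0.121 CPM, and no member was at 0 in any library. Wild-type replicate 1 stood apart: it was the lowest library for 45 of 50 members (90%) and for 34.3% of all tested genes. It was also the highest library for 2 members and for 32.7% of all tested genes. Without it the members' median log2 fold change was 0.57, with 47 still called higher and 1 lower. On the other side KO replicate 2 was the highest library for 46 members and for 25.2% of all tested genes. It was the lowest for 0 members and for 23.7% of all tested genes. Without it the members' median was 0.58, with 45 called higher and 1 lower. The chi-square per gene of wild-type replicate 1 was 12.2 and 13.6 against the other wild-type libraries, which differed from each other by 2.56. The targeted gene Dnm1l was lower in KO, at 92.6 to 100.6 CPM against 116.6 to 123.1 CPM. Its log2 fold change was -0.32 ± 0.05 (SE), a change of -19.7%. The counts of Dnm1l may include exons that the deletion left in place. Counts by gene do not show this, and why the fall was no larger was not tested. Myc was at 131.6, 188 and 179.7 CPM in the wild-type libraries, by replicate number, and at 226, 249 and 227 CPM in the KO libraries (log2 fold change 0.49 ± 0.11).

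T cell markers (Cd3e, Lck, Zap70 and 9 others) had a summed level of 6364 to 6698 CPM in wild type, against 5410 to 5649 CPM in KO, with 9 of 12 called lower and 1 higher. Cd4, Cd8a and Cd8b1 summed to 1008 to 1029 and 879.98 to 901 CPM, with 2 of 3 called lower. Gamma-delta T cell markers summed to 52.7 to 57.4 and 108 to 127 CPM, with 6 of 7 called higher. Of 5 megakaryocyte markers 3 were tested, and all 3 were called higher (sums of 7.58 to 9.66 and 19.9 to 22.9 CPM). Of 5 mast cell markers 4 were tested, and all 4 were called higher (1.49 to 1.85 and 6.66 to 8.90 CPM). B cell markers summed to 191.5 to 223 and 209 to 225 CPM, with 2 of 8 called higher and 1 lower. NK cell markers summed to 7.39 to 8.02 and 9.50 to 10.99 CPM, with 2 of 4 tested called higher and 0 lower. Myeloid markers summed to 28.4 to 31.8 and 22.4 to 25.7 CPM, with S100a8, S100a9 and Fcgr1 at 0. Of 3 myeloid markers tested 1 was called higher and 2 lower. Erythroid markers summed to 0.553 to 1.21 and 1.71 to 2.57 CPM, with Hba-a2 at 0 and 2 of 2 tested called higher. Several markers, among them Trdv4, Fcer1a, Ncr1, Lyz2 and Klf1, had few counts in wild type (Fcer1a 3, 3 and 5, Klf1 4, 12 and 8). They passed the filter on low counts only through the KO libraries. A higher call was thus the only one open to them, and it carries no weight. The part of these cells in the results below was not tested. In bulk RNA a change in the share of cells that use a gene and a change in the RNA per cell cannot be told apart. Xist, which marks an inactive X chromosome, was at 0 to 0.101 CPM in wild type, against 417 to 472 CPM in KO. Y-linked Ddx3y was read in all 6 libraries (106.0 to 153 CPM in wild type, 69.7 to 77.2 CPM in KO). Every KO library thus held both Xist and Y-linked RNA, while the wild-type libraries held Y-linked RNA and almost no Xist. Whether the KO libraries mix cells of both sexes, or come from a pool, was not tested. Xist and the Y-linked genes moved with genotype, and sex and genotype cannot be told apart here. Of the members, Dkc1 and Utp14a lie on the X chromosome, and 46 of the 48 autosomal members were called higher.

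All 4 box C/D snoRNP genes rose, with a median log2 fold change of 0.87. Nop56 (chromosome 2, 130274430 to 130279313, mm10), a scaffold protein of the box C/D particle, had 98.9, 135 and 132 CPM in wild-type replicates 1, 2 and 3 and 225, 270.1 and 232 CPM in the same order in KO, the order kept for every gene below. The KO libraries lay well clear of the wild-type ones, and the mean went from 122 ± 19.98 to 242.5 ± 24.1 CPM (SD, n = 3 each; log2 fold change 0.99 ± 0.11 SE, edgeR adjusted p = 9.42e-05). Nop58, its partner in the scaffold (chromosome 1, 59684971 to 59719044), had 116, 135 and 139 CPM in wild type and 198, 243 and 222 CPM in KO. The groups did not overlap, and its log2 fold change was 0.77 ± 0.08 (edgeR adjusted p = 8.82e-05). Rrp9 (chromosome 9, 106475963 to 106485424), which binds the U3 snoRNA that guides early cleavage of the precursor, had 32.7, 41.2 and 42.1 CPM in wild type and 71.3, 81.5 and 74.9 CPM in KO. Its mean nearly doubled (log2 fold change 0.97 ± 0.09, edgeR adjusted p = 4.60e-05). Fbl, fibrillarin, the methyltransferase of the particle, rose from 55.9 ± 2.97 to 80.5 ± 2.504 CPM (log2 fold change 0.53 ± 0.06).

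All 5 genes of the box H/ACA particle and its chaperone rose, with a median log2 fold change of 0.85. Nolc1 (chromosome 19, 46075863 to 46085530), the nucleolar phosphoprotein that accompanies snoRNPs, had 62.5, 92.5 and 91.9 CPM in wild type and 171, 207 and 185 CPM in KO. Even the lowest KO library stood far above the highest wild-type one, and the log2 fold change of 1.19 ± 0.13 (edgeR adjusted p = 9.11e-05) was the largest of the 50. Without wild-type replicate 1 it was 1.03. Dkc1, dyskerin, the pseudouridine synthase (chromosome X, 75095854 to 75109777), had 55.2, 78.8 and 76.5 CPM in wild type and 118, 145 and 135 CPM in KO (log2 fold change 0.91 ± 0.12, edgeR adjusted p = 0.000219). Among the 457 tested genes of the X chromosome 22.3% were called higher and 25.6% lower. Gar1 (chromosome 3, 129824912 to 129831396), a core protein of the particle, had 29.2, 34.4 and 34.7 CPM in wild type and 54.7, 62.8 and 60.7 CPM in KO, again without overlap (log2 fold change 0.85 ± 0.08, edgeR adjusted p = 4.29e-05). The core proteins Nhp2 and Nop10 rose by 0.63 ± 0.07 and 0.36 ± 0.06 on the log2 scale. Nop10 (chromosome 2, 112261926 to 112263269) had 43.3, 45.5 and 45.0 CPM in wild type and 55.1, 61.0 and 55.3 CPM in KO.

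The 4 genes grouped as abundant nucleolar RNA-binding proteins moved in both directions, with 3 called higher and 1 lower. Npm1, nucleophosmin, an abundant chaperone of nucleolar assembly (chromosome 11, 33152287 to 33163206), was the only member called lower. It had 2902, 2603 and 2501 CPM in wild type and 2125, 2233 and 2231 CPM in KO. No KO library reached the lowest wild-type value, and the mean went from 2669 ± 208 to 2197 ± 62.1 CPM (log2 fold change -0.28 ± 0.06, edgeR adjusted p = 0.00199). Without wild-type replicate 1, its highest library, the log2 fold change of Npm1 was -0.22. Ncl, nucleolin, which binds the precursor and ribosomal DNA chromatin (chromosome 1, 86344719 to 86359400), had 1491, 1468 and 1409 CPM in wild type and 1507, 1740 and 1660 CPM in KO. The lowest KO library was just above the highest wild-type one, and the log2 fold change was 0.17 ± 0.05 (edgeR adjusted p = 0.0250). That call was lost without wild-type replicate 2 (edgeR adjusted p = 0.0552), wild-type replicate 3 (0.0849), KO replicate 2 (0.117) or KO replicate 3 (0.0918).

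Mybbp1a, a Myb-binding protein that takes part in ribosomal RNA synthesis and processing (chromosome 11, 72441355 to 72451768), had 182, 224 and 232 CPM in wild type and 365, 421 and 392 CPM in KO. Its groups were wide apart (log2 fold change 0.88 ± 0.09, edgeR adjusted p = 5.50e-05). Ddx21, a helicase of ribosomal RNA transcription and processing (chromosome 10, 62580251 to 62602281), had 251, 278 and 297 CPM in wild type and 381, 422 and 412 CPM in KO (log2 fold change 0.56 ± 0.06, edgeR adjusted p = 0.000117). Summed over the 4 genes, the level was 4439 to 4827 CPM in wild type, against 4378 to 4817 CPM in KO, since Npm1 and Ncl make up most of it.

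Per kilobase of coding sequence Npm1 and Ncl had the highest levels of the 50 members, while Ddx21 ranked 5 and Mybbp1a 13. Npm1 stood at 3047 CPM per kilobase in wild type and 2508 in KO, Ncl at 687 and 771, and Nop10, the next, at 232 and 298. At the other end Utp20 had 4.84 CPM per kilobase in wild type and 9.89 in KO. By this measure Npm1, Ncl and Nop10 led and Utp20 was last in both groups, while the distance between Npm1 and Ncl was smaller in KO. Counts by gene were divided by coding length alone, which raises genes whose coding sequence is a small part of the transcript. That of Nop10 is 192 bases in a transcript of 1109 bases, so its rank depends on this divisor.

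**Figure D2:**
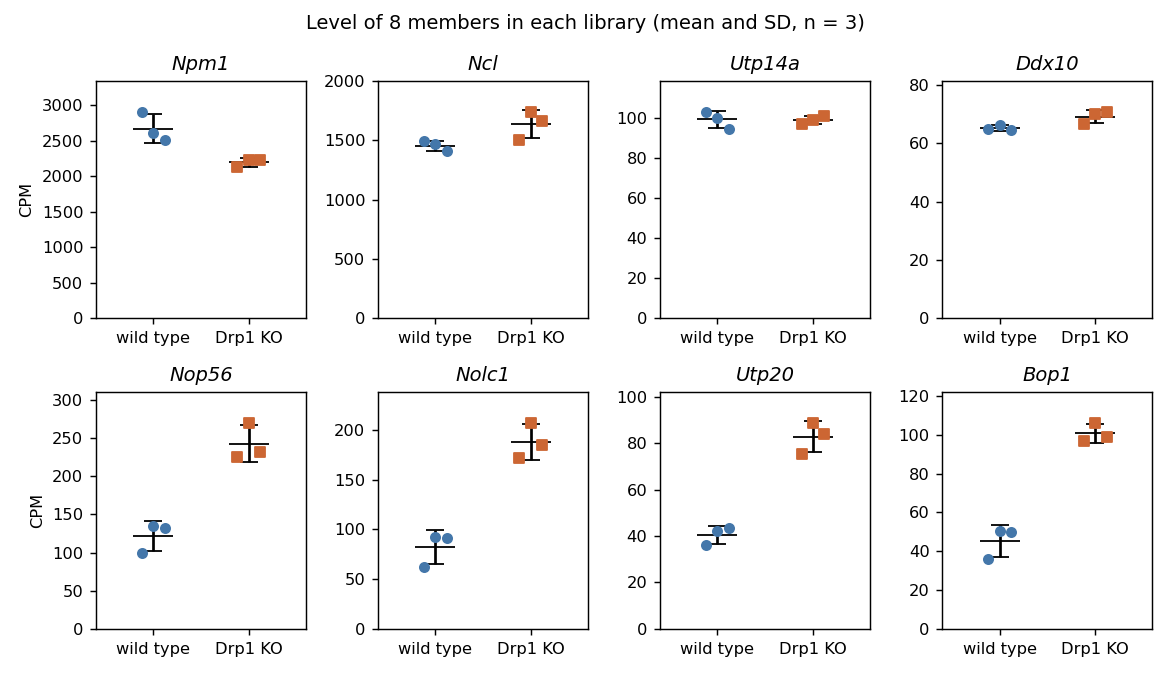
CPM (y axis, from 0) of 8 members for wild type and KO (x axis); each symbol is a library, and the black marks give the mean and SD over 3 libraries. Npm1 is lower in KO (2669 against 2197 CPM), Utp14a overlaps, Ddx10 was not called, and Nop56, Nolc1, Utp20 and Bop1 are near or above a doubling.

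Of 17 SSU processome genes 15 rose, 0 fell and 2 were not called. Their median log2 fold change was 0.56. Pwp2, a propeller protein of the UTP-B module (chromosome 10, 78170909 to 78185149), had 19.6, 26.6 and 27.0 CPM in wild type and 46.0, 54.8 and 51.8 CPM in KO (log2 fold change 1.05 ± 0.11, edgeR adjusted p = 7.62e-05). Utp20 (chromosome 10, 88746607 to 88826804), a very large scaffold protein, had 36.1, 42.1 and 43.2 CPM in wild type and 75.4, 88.8 and 84.0 CPM in KO (log2 fold change 1.03 ± 0.08). Its adjusted p of 2.84e-05 in edgeR was the smallest of the 50 members. Heatr1, which links the transcription of the precursor to its processing (chromosome 13, 12395027 to 12440289), had 68.7, 86.1 and 93.0 CPM in wild type and 138, 160 and 153 CPM in KO (log2 fold change 0.86 ± 0.10, edgeR adjusted p = 0.000115). For each of these 3 genes every KO library was above every wild-type library.

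The other processome genes spread widely. Tbl3 and Utp18, partners of Pwp2 in UTP-B, rose by 0.85 ± 0.08 and 0.56 ± 0.07 on the log2 scale. Among the partners of Heatr1 in the UTP-A module, Wdr75 rose by 0.61 ± 0.06, Wdr43 by 0.54 ± 0.06 and Utp15 by 0.34 ± 0.05. Noc4l and Nop14, which bind each other, rose by 0.75 ± 0.07 and 0.46 ± 0.07. Nol6, of the UTP-C module, rose by 0.76 ± 0.10 and Bms1, a GTPase of the processome, by 0.60 ± 0.08. Nol10 rose by 0.44 ± 0.07 and Nat10, the acetyltransferase of 18S ribosomal RNA, by 0.34 ± 0.05. Utp3 was close to the threshold (log2 fold change 0.21 ± 0.07, edgeR adjusted p = 0.0243), and its call was lost without KO replicate 2 (0.111) or KO replicate 3 (0.0617).

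Utp14a and Ddx10, both tied to the helicases of the processome, did not pass. Utp14a (chromosome X, 48256862 to 48282453), which activates a helicase, had 103, 100.2 and 94.9 CPM in wild type and 97.0, 99.0 and 101 CPM in KO. The groups overlapped fully, with a log2 fold change of -0.01 ± 0.05 (edgeR adjusted p = 0.935), whose sign turned with the scaling used. Ddx10, itself a helicase (chromosome 9, 53098635 to 53248053), had 64.8, 66.4 and 64.4 CPM in wild type and 66.6, 69.9 and 70.7 CPM in KO. Its KO libraries were all above the wild-type ones by a small margin (log2 fold change 0.08 ± 0.05, edgeR adjusted p = 0.185). With library totals alone as the scaling Ddx10 was called higher (log2 fold change 0.16, edgeR adjusted p = 0.0263), and with GC content and length corrected for its value was -0.01.

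All 4 genes for late 40S maturation and export rose, with a median log2 fold change of 0.57. Bysl, bystin, a factor of late 40S precursors (chromosome 17, 47599331 to 47611492), had 19.3, 28.8 and 29.6 CPM in wild type and 44.8, 52.3 and 50.9 CPM in KO. Wild-type replicate 1 was low even for that group, and the log2 fold change of 0.92 ± 0.13 (edgeR adjusted p = 0.000327) was 0.75 without it. Rrp12, a factor for export from the nucleus (chromosome 19, 41862851 to 41896173), had 38.2, 44.3 and 46.7 CPM in wild type and 64.3, 69.7 and 65.1 CPM in KO (log2 fold change 0.62 ± 0.07, edgeR adjusted p = 0.000133). Ltv1 (chromosome 10, 13178140 to 13193168), which leaves the 40S precursor late, had 42.9, 45.1 and 46.3 CPM in wild type and 60.3, 67.9 and 65.3 CPM in KO (log2 fold change 0.53 ± 0.06, edgeR adjusted p = 0.000110). The 2 groups were apart for each of them. Tsr1, a GTPase-like factor of the 40S precursor, rose from 80.0 ± 8.55 to 104 ± 5.58 CPM.

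All 16 genes for 60S assembly rose, with a median log2 fold change of 0.68. Bop1 (chromosome 15, 76452989 to 76477277), of the PeBoW complex that acts on the precursor of the large subunit, had 35.9, 50.3 and 50.03 CPM in wild type and 96.9, 106 and 99.0 CPM in KO. Its log2 fold change of 1.14 ± 0.11 (edgeR adjusted p = 4.86e-05) was 1.00 without wild-type replicate 1. The other PeBoW genes also rose: Wdr12 from 45.8 ± 3.26 to 73.5 ± 5.19 CPM (log2 fold change 0.68 ± 0.07) and Pes1 from 91.9 ± 5.07 to 120 ± 5.37 CPM (0.38 ± 0.06). Whether the fold changes of these 3 subunits differ was not tested. Rrs1, which helps to place the 5S ribosomal RNA (chromosome 1, 9545408 to 9547455), had 14.8, 20.7 and 21.5 CPM in wild type and 36.1, 41.2 and 38.4 CPM in KO (log2 fold change 1.01 ± 0.12, edgeR adjusted p = 0.000115). Nop2, a methyltransferase of 28S ribosomal RNA (chromosome 6, 125131909 to 125144753), had 41.2, 56.7 and 59.0 CPM in wild type and 91.5, 104 and 96.0 CPM in KO (log2 fold change 0.89 ± 0.11, edgeR adjusted p = 0.000176). In both genes the lowest KO library stood above 1.5 times the highest wild-type library.

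The remaining 60S genes lay between these. Mrto4, a placeholder for a stalk protein, rose by 0.88 ± 0.08 on the log2 scale, Gnl3, the GTPase nucleostemin, by 0.83 ± 0.09, and Ppan by 0.81 ± 0.12. Nop16 rose by 0.72 ± 0.08 and Nol9, a kinase that acts on cut precursor RNA, by 0.69 ± 0.09. Noc3l and Noc2l, which form a complex, rose by 0.66 ± 0.08 and 0.57 ± 0.07. Wdr74 rose by 0.61 ± 0.08, the helicase Ddx18 by 0.54 ± 0.08, Nle1 by 0.45 ± 0.06 and Rrp1b by 0.44 ± 0.05. Summed over the 16 genes, the level was 811 to 964 CPM in wild type, against 1379 to 1552 CPM in KO. For the 17 processome genes the sums were 1034 to 1161 and 1517 to 1697 CPM, so neither pair of ranges overlapped.

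Some members also hold annotated genes for snoRNAs, the guide RNAs of the pathway, within their bounds. A snoRNA gene lay within 8 of the 50 members on their strand (16%), against 1.48% of tested genes. They were Nop56 with 5, Nop58 with 4, Ncl, Wdr43 and Gnl3 with 3 each, Tsr1 and Ppan with 2 each and Dkc1 with 1. All 8 were called higher, with a median log2 fold change of 0.79, against 0.62 in the 42 members without one. Their mRNA levels do not measure the snoRNAs, which lack a poly(A) tail. Annotated exons of Nop56, Nop58, Ncl, Ppan and Gnl3 overlapped some of these snoRNA genes on the same strand, and for Ncl also a miRNA gene. Exons of 19 members overlapped a gene on the opposite strand, and the strand setting used in counting is not given in these sources, so such reads cannot be told apart. Npm1 has processed pseudogenes, and how reads that match several places were counted is not given either.

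A further 99 genes of ribosome biogenesis, written down from general knowledge with results of these data already known, moved mostly the same way. Of these, 98 were tested, 5 of them found under an older symbol. Higher calls numbered 78, lower calls 5 and genes without a call 15, with a median log2 fold change of 0.38. By role, 27 of 34 further SSU and 40S factors were called higher, 31 of 41 further 60S factors, 10 of 11 snoRNP assembly factors and 10 of 12 subunits or partners of the RNA exosome, the nuclease that trims precursor ends. The share of all tested genes called higher was, as above, 26.7%.

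**Figure D3:**
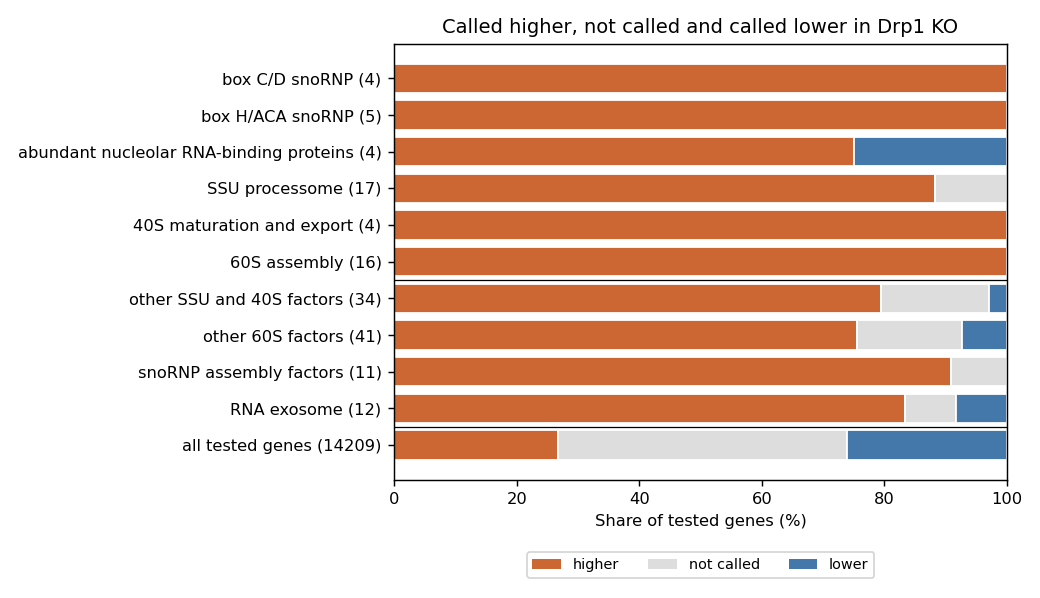
Share of tested genes (x axis, percent) called higher, not called and called lower in KO, for the 6 role groups of the members, the 4 groups of further factors and all tested genes (y axis, number tested in brackets). In 4 of the 6 member groups every gene was called higher, against 26.7% of all tested genes.

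The 3 largest called rises in each of these groups were as follows. Ftsj3, an RNA methyltransferase of 60S assembly, had 47.3, 64.9 and 67.0 CPM in wild type and 110.5, 133 and 124 CPM in KO (log2 fold change 1.03 ± 0.12). Urb1 (1.01 ± 0.12) and Rrp15 (0.99 ± 0.09) followed among the 60S factors. Wdr46, Pno1 and Dhx37 led the small-subunit factors, with log2 fold changes of 0.89 ± 0.10, 0.88 ± 0.07 and 0.74 ± 0.10. Shq1, which escorts dyskerin before it enters the particle, went from 8.26 ± 1.88 to 16.4 ± 0.937 CPM (log2 fold change 0.98 ± 0.14), with Znhit6 (0.84 ± 0.12) and Ruvbl1 (0.84 ± 0.08) next among the assembly factors. In the exosome Exosc1 rose by 0.80 ± 0.08, Exosc2 by 0.79 ± 0.08 and Exosc7 by 0.54 ± 0.08. None of these 12 genes had overlapping groups.

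The 5 genes called lower were Exosc8, Gltscr2, Sbds, Nsa2 and Ddx47. Exosc8, a ring subunit of the exosome, had 335, 258 and 249 CPM in wild type and 182, 171 and 171 CPM in KO (log2 fold change -0.68 ± 0.10, edgeR adjusted p = 0.000299). Of the other 11 exosome genes tested 10 were called higher. Mphosph6 was not called, though every KO library was below every wild-type library for it too. Gltscr2, a 60S factor also named Nop53, had 591, 543 and 528 CPM in wild type and 437, 408 and 417 CPM in KO (log2 fold change -0.40 ± 0.05, edgeR adjusted p = 0.000216). Sbds, which helps to release the anti-association factor Eif6 from the new 60S subunit, had 88.5, 82.6 and 80.0 CPM in wild type and 66.4, 66.6 and 65.4 CPM in KO (log2 fold change -0.34 ± 0.05), while Eif6 rose (0.58 ± 0.08). Nsa2, a 60S factor, had 193, 188 and 176 CPM in wild type and 139, 152 and 153 CPM in KO (log2 fold change -0.33 ± 0.06). In all 4 genes, as in Npm1, wild-type replicate 1 was the highest library and every KO library was below every wild-type library. The fall of Ddx47, a helicase, was small (log2 fold change -0.18 ± 0.06, edgeR adjusted p = 0.0229), and its call was lost without KO replicate 1 (0.0652), 2 (0.0686) or 3 (0.0573) and with library totals alone (0.110).

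**Figure D4:**
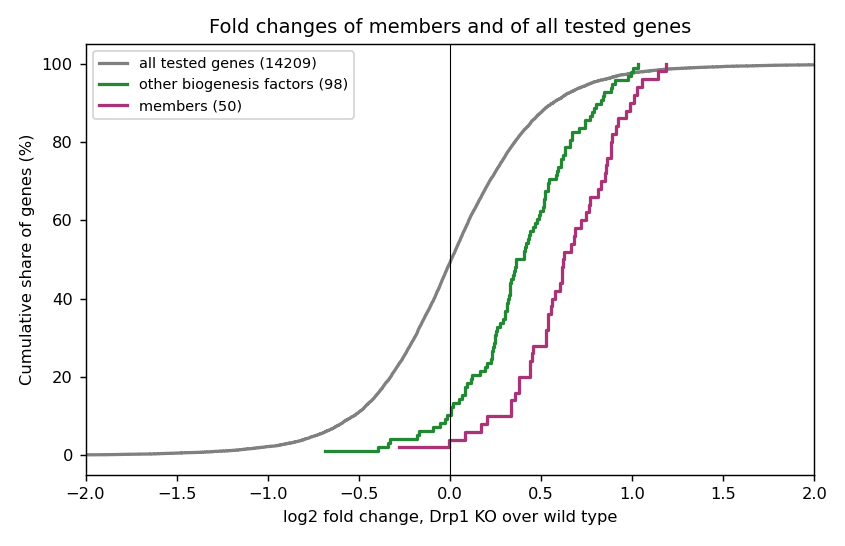
Cumulative share of genes (y axis, percent) against log2 fold change, KO over wild type (x axis, shown from -2 to 2), for the 50 members, the 98 further factors tested and all 14209 tested genes. The curves cross the middle of the y axis at 0.62, 0.38 and 0.01.

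With TMM factors 50.6% of all called genes were higher, with library totals alone 62.0%, and the median of all tested genes moved from 0.01 to 0.08. The members' median was 0.70 with library totals alone. Under that scaling Npm1 was still called lower (log2 fold change -0.20, edgeR adjusted p = 0.00314). With GC content and length corrected for, the members' median was 0.64 and Npm1 stood at -0.36.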

How the data were processed

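Raw counts by gene symbol were deposited by the authors as 1 table with a column for each of 6 libraries. The libraries were made with a stranded mRNA kit, per the labels' protocols. The submitters' processing notes list DESeq2 1.12, HTSeq 0.6.1, STAR 2.5.2, Cufflinks, FastQC and mm10, with no roles or order. Neither the annotation release nor the handling of strand is given in these sources. In 27 rows (0.241% of counts) a date had replaced the symbol; they stayed in the totals.

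From the counts, KO was compared with wild type by edgeR 4.0.16 (R 4.3.3; TMM, filterByExpr, quasi-likelihood F test, 4 residual degrees of freedom, Benjamini-Hochberg adjustment over 14209 genes, biological coefficient of variation 6.13%). The SE is the log2 fold change divided by the square root of F. Group and replicate number came from the sample titles. Positions and lengths are from GENCODE M21 (mm10), by symbol; CPM per kilobase uses the longest coding sequence. Promoter windows are from RefSeq.

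Members, role groups and lists were chosen with earlier results of these data known. Each library's values are given for members not called higher, the 3 largest log2 fold changes per role group and the 3 highest levels per kilobase; of the further factors, those called lower and the 3 largest called rises per group were named. Eif6 and Mphosph6 were named after their values were seen. The fit was checked on simulated counts drawn with a common dispersion for all genes. It recovered 42%, 76% and 96% of simulated log2 changes of 0.3, 0.6 and 1, and 81.6% of those of -0.6. Of 150 calls 3 were false. DESeq2 1.42.0 and limma 3.58.1 served as alternatives, with other scalings, filters, thresholds, a replicate block, a GC and length correction and each library left out. Plots used matplotlib 3.10.9 (Python 3.11.15).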

Additional observations from a re-analysis of the deposited data

How the results depend on the processing

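Over 18 alternatives, 865 of 900 values for single members kept their direction and call. Utp14a turned positive with upper quartile factors (0.016) and library totals alone (0.070), and with a library left out it ran from -0.044 (without wild-type replicate 3) to 0.020 (without wild-type replicate 1), positive also without KO replicate 1 (0.0050), and Ddx10 turned negative with the GC and length correction (-0.012, and -0.012 with the replicate block added); the causes were not tested. Ncl and Utp3 were lost at an adjusted p under 0.01, and Utp3 with the GC and length correction (0.0594). Requiring a 1.5-fold change lowers counts by construction: 2236 genes called (1188 higher, 1048 lower), 29 members higher and 0 lower, 1 of the abundant RNA-binding group, 8 of the processome, 2 of the 40S maturation group, and 28 further factors higher and 1 lower. The E-box share was 4.65% in the bases before the start only. The other 251 of 262 counts and medians stayed within 1.5 times, or within 0.10 (1 SD between libraries) for the members' median, which ran from 0.57 to 0.67 with a library left out.

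The replicate number as a block changed no member's call (47 higher, 1 lower; median 0.63). Deviations of same-numbered libraries correlated at 0.17, 0.13 and 0.01, so the numbers were not taken as pairs; wild-type replicate 3 did not correlate best with its own number. Depth limits the values of the members little, since their smallest wild-type mean was 19.0 CPM. It does limit the calls of cell type markers with few counts, such as Klf1 at 4, 12 and 8 in wild type.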
